A study of Bos taurus with 11 samples.

Results

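Mononuclear cells (PBMCs) were isolated from the blood of 5 female Ladakhi cattle (Bos taurus by label), native to a high-altitude region, and their total RNA was measured on 1-colour Agilent bovine oligonucleotide arrays. The 5 arrays were chosen by their titles, and they are 5 of the 11 arrays of the series. The other 6 arrays, of Sahiwal cattle from low altitude, were not compared here and supplied only the gene names of the probes. The labels give neither the animals' ages nor a treatment, and they number the Ladakhi samples 1 to 5, which are called animals 1 to 5 below. The labels give 1 array for each number, so the spread between arrays includes the spread of the measurement.

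Circulating mononuclear cells are mostly T cells, B cells, natural killer cells and monocytes. Lymphocytes at rest are small cells, and nearly every one of them carries class I molecules of the major histocompatibility complex (MHC), which show peptides to T cells. Ribosomal proteins, which build the ribosome, are made in all of these cells.

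A level is the log2 processed signal of a probe minus the array's median over the probes kept, so 0 is the middle of the measured probes and a step of 1 is a doubling of signal. A probe was kept where it lay well above background on all 5 arrays. This held for 2684 of 43653 probes, which stood for 1827 named genes, each represented by its brightest kept probe. A further 1366 probes met it on 4 arrays and 34985 on none. Spots well above background numbered 4820, 4243, 6608, 4653 and 6541 of 43803 on animals 1 to 5, no spot was saturated, and the median processed signal of the kept probes was 423, 441, 768, 338 and 498. Animal 3 was the brightest array and animal 4 the dimmest. Animals 1 to 4 shared a slide, and animal 5 was alone on another. Levels of different genes are signals of different probes, not counts of messages: in 376 genes with several kept probes, the probes' means within a gene had a median SD of 0.67, against 1.51 over all kept probes.

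The brightest probes were those of ribosomal protein genes, with ferritin, a mitochondrial cytochrome oxidase subunit and translation elongation factor among them. Of the 25 genes with the highest mean level, ribosomal protein genes made up 21, and the 23 described here had means from 4.81 to 5.57. RPL29, a protein of the large ribosomal subunit, gave 5.78, 5.75, 5.16, 5.88 and 5.29 in animals 1 to 5 (5.57 ± 0.32, SD, n = 5). RPS29, of the small subunit, gave 5.71, 5.65, 5.24, 5.52 and 5.67 (5.56 ± 0.19, SD, n = 5). Both were lowest in animal 3. FTH1, the heavy chain of the iron-storage protein ferritin, gave 5.42, 5.25, 4.95, 5.87 and 5.80. COX3, a subunit of cytochrome c oxidase encoded in the mitochondrial genome, gave 5.33, 5.74, 4.21, 5.86 and 5.56, with animal 3 again below the others. EEF1A1, the factor that delivers aminoacyl-tRNA to the ribosome, gave 5.57, 5.56, 5.15, 5.63 and 4.67 and was lowest in animal 5. The remaining gene of the 25 was named RN18S1, 18S ribosomal RNA, when names were updated, while the array's own name for the probe is ITPR1. Which of these names is right was not tested. The RN18S1 probe ran from 2.63 in animal 3 to 6.39 in animal 4 (4.93 ± 1.49, SD, n = 5). It was the only gene of the 25 with an SD over 1, a spread found in 6.46% of all genes. Labelling was from a T7 promoter primer, and whether this probe's signal follows the amount of 18S RNA was not tested.

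**Figure D1:**
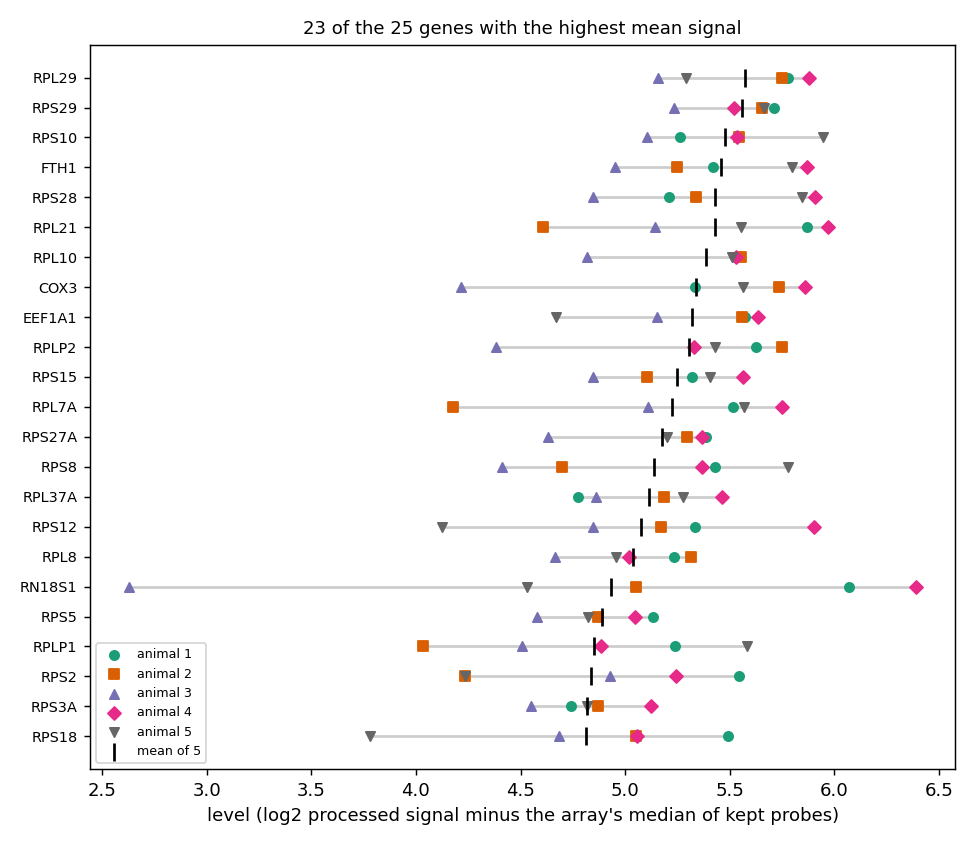
Levels of 23 of the 25 genes with the highest mean, 1 row a gene, on a log2 axis where 0 is the array's median of kept probes. Coloured points are animals 1 to 5, the black tick is their mean and the grey line the range. The means lie between 4.81 and 5.57, and RN18S1 has the widest range, from 2.63 to 6.39.

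Animal 3 held the lowest level in 17 of these 25 genes, animal 2 in 4, animal 5 in 3, animal 1 in 1 and animal 4 in none. That pattern depended on how arrays were scaled. With the 75th percentile of all probes animal 3 was lowest in 7 of the 25, and with quantile normalization or cyclic loess in 5.

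By gene class, with each gene's brightest probe, both ribosomal subunits lay far above every other class measured. The 33 measured small-subunit genes of 34 listed had class means of 4.15, 4.00, 3.88, 4.29 and 4.30 in animals 1 to 5 (4.12 ± 0.18, SD, n = 5). The 44 large-subunit genes of 46 on the array averaged 3.66 ± 0.23 (SD, n = 5). Their median member levels were 4.46 and 3.95, against -0.05 over all 1827 genes. When all kept probes of a gene were averaged, the small-subunit means were 3.47, 3.39, 3.16, 3.40 and 3.78. The large-subunit means were then 2.87, 2.59, 2.36, 2.58 and 2.97. Means of the mitochondrial genome messages then ran from 1.69 in animal 3 to 2.45 in animal 5. The 8 messages of the mitochondrial genome averaged 2.59 ± 0.31, while the 14 mitochondrial ribosomal proteins, which are encoded in the nucleus, averaged -0.67 ± 0.05. That small spread depended on the scaling: with the 75th percentile the class means ran from -0.91 in animal 1 to -0.28 in animal 3. Of 74 mitochondrial ribosomal protein genes on the array, 39 others were well above background on 1 to 4 arrays and 21 on none.

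Translation factors (27 genes measured of 40) averaged 1.86 ± 0.12 (SD, n = 5). Within this class EEF2, which moves the ribosome along the message, was at 4.34 ± 0.22, and TPT1, the translationally controlled tumour protein, was at 4.08 ± 0.48. The poly(A)-binding protein gene PABPC1 had one of the smaller spreads, at 3.33 ± 0.11. The nuclear genes of oxidative phosphorylation (49 of 80) averaged 0.78 ± 0.13, led by the ATP synthase subunit ATP5MG at 3.43 ± 0.54.

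Glycolysis genes (14 of 21) averaged 1.19 ± 0.15 (SD, n = 5). GAPDH, often used as a reference gene, gave 4.19, 4.44, 4.12, 4.15 and 3.92, an SD of 0.18 with the brightest of 7 kept probes. The next GAPDH probe had an SD of 0.80, and the mean of the 7 probes 0.35. ENO1 had 4.02, 3.57, 3.90 and 1.25 in animals 1 to 4, low in animal 4 and between these in animal 5, and ALDOA had 2.49, 2.80, 2.71, 3.24 and 0.02, low in animal 5. In animal 5 the brightest ALDOA probe departed by -2.69 from its median and the next by 0.00. ENO1 and ALDOA encode enolase and aldolase, neighbouring parts of the same pathway as GAPDH, and with their brightest probes their farthest arrays differed.

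Genes of the actin cytoskeleton (24 of 36) averaged 1.77 ± 0.17 (SD, n = 5). Profilin, PFN1, gave 4.03, 4.06, 3.89, 3.11 and 3.98, with animal 4 below the others. Genes of leukocyte adhesion (9 of 25) averaged 1.72 ± 0.17. CD52, a small surface glycoprotein of lymphocytes and monocytes, gave 4.78, 3.73, 4.19, 5.17 and 5.01. The integrin chain ITGB2 was narrower, at 3.11 ± 0.17. Iron storage and uptake was measured by 3 of 11 genes, FTH1, FTL (2.45 ± 0.47) and NCOA4 (-1.43 ± 0.66); the transferrin receptor gene TFRC was well above background on 0 arrays.

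The heat shock and unfolded protein response classes were lower in animals 1 and 2 than in the other animals. The immediate early genes were higher in those same animals. Other classes were also lower in animals 1 and 2, such as the proteasome (0.43, 0.32, 0.52, 0.87 and 0.79) and nuclear oxidative phosphorylation (0.69, 0.66, 0.71, 0.87 and 0.97). The antioxidant enzymes did not follow that order, at 0.91, 0.92, 1.06, 0.45 and 0.93. The heat shock class (10 of 26 genes) had means of 0.51, 0.44, 1.08, 1.17 and 1.12 in animals 1 to 5. The unfolded protein response class (9 of 23), which shares 2 members with it, had means of 0.73, 0.71, 1.48, 1.22 and 1.32. Immediate early genes (10 of 32), which cells switch on within minutes of a stimulus or of handling, had means of 0.92, 0.90, 0.06, 0.31 and 0.30. These orders of animals 1 and 2 against the rest were read from the class means and carry no test. For the heat shock, unfolded protein response, immediate early and proteasome classes they were the same under the 4 other scalings or background corrections and when all probes of a gene were averaged. For oxidative phosphorylation the order was lost when probes were averaged.

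Single members followed the class means in part. CALR, the calreticulin chaperone of the endoplasmic reticulum, gave 2.81, 2.90, 3.08, 3.39 and 3.31. HSP90B1, the chaperone of the same compartment, gave -0.50, -1.42, 1.84, 1.62 and -0.07. It had the largest SD of the heat shock and of the unfolded protein response class, 1.40. HSPA5, which encodes BiP, went another way, at 2.09, 2.21, 2.46, 2.22 and 1.42. Among immediate early genes IER5 gave 0.55, 2.07, -0.20, -0.99 and -1.36, and IER2 gave 2.08, 1.78, 0.48, 0.79 and 0.54. JUND, at 1.85, 0.82, 1.49, 2.13 and 1.47, was lowest in animal 2.

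**Figure D2:**
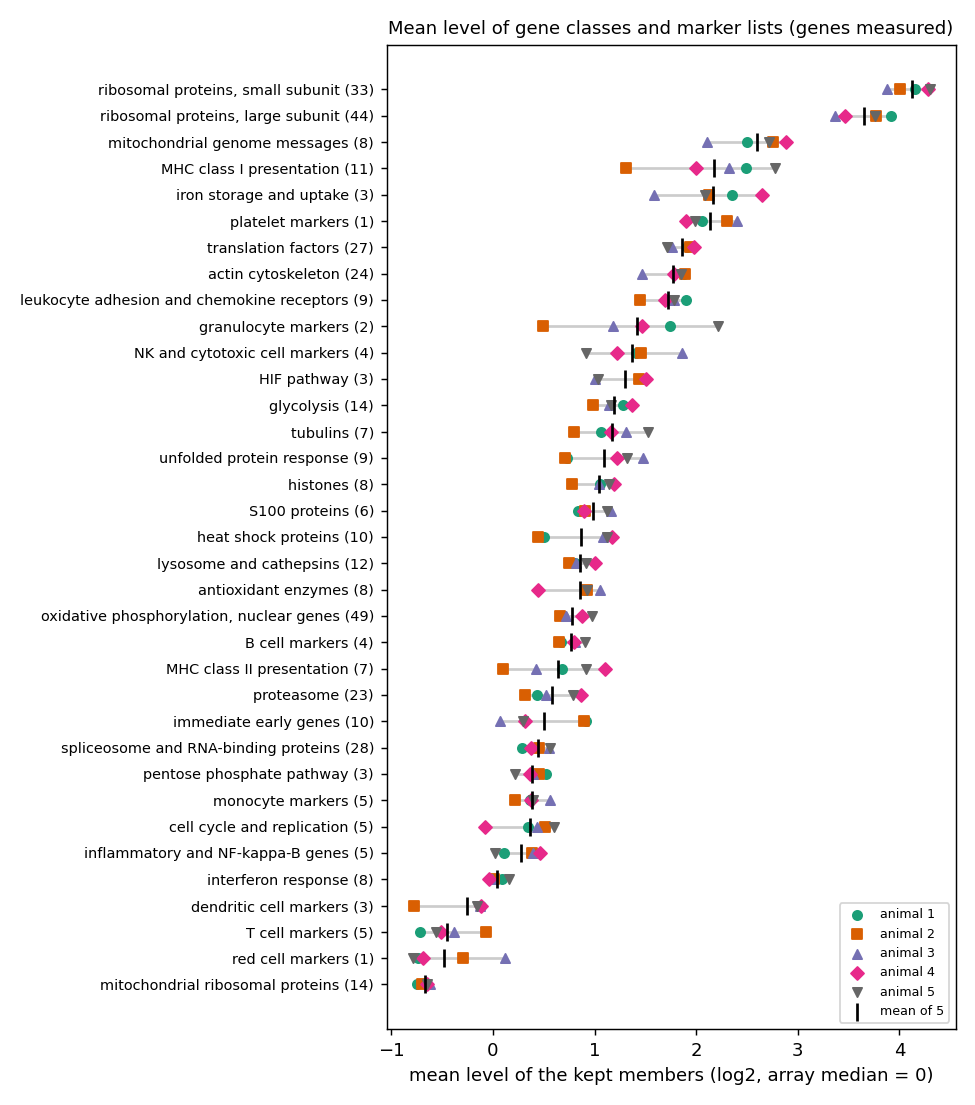
Mean level of the kept members of 27 gene classes and 8 marker lists with a measured member, with the number of genes measured in brackets, on a log2 axis where 0 is the array's median. Coloured points are animals 1 to 5, the black tick their mean. The ribosomal subunits stand at 4.12 and 3.66, and the mitochondrial ribosomal proteins are lowest at -0.67.

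The defining markers of mononuclear cells were partly above background. Of 12 T cell markers 5 were measured: LCK, the kinase next to the T cell receptor, at 1.41 ± 0.65 (SD, n = 5), CD4 at -0.42 ± 0.33, ZAP70 at -0.57 ± 0.48, CD3G at -1.16 ± 0.26 and CD2 at -1.51 ± 0.21. CD3D was well above background on 4 arrays and CD3E on 3. Messages of the T cell receptor outside that list were brighter, and were added after their values were seen: TCRA, the alpha chain, was at 3.05 ± 0.20, and CD247, the zeta chain of the receptor complex, at 2.92 ± 0.63. Of 3 listed markers of gamma delta T cells found on the array, none was measured on all 5 arrays, GATA3 reached 4 arrays, CD163L1 2 and WC1 0. Of 9 B cell markers 4 were measured, among them BLK (1.29 ± 0.40), CD79A (0.55 ± 0.60) and the J chain gene JCHAIN (0.28 ± 0.56).

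Of the natural killer and cytotoxic markers 4 were measured, with a list mean of 1.37 ± 0.35 (SD, n = 5) and the lowest member at -0.83. A further 3 were well above background on 1 to 4 arrays and 4 on none. CCL5, a chemokine of activated T and natural killer cells, gave 4.44, 4.24, 4.39, 3.73 and 1.58, low in animal 5. In that animal the brightest CCL5 probe departed by -2.66 from its median and the next by -0.24. GNLY, an antimicrobial protein of cytotoxic granules, gave 0.47, 1.13, 1.99, 2.34 and 2.44, lowest in animal 1. NKG7 was at 0.97 ± 0.97. For monocytes SPI1, TYROBP, LYZ, CSF1R and FCER1G were measured, 5 of 12 genes with a class mean of 0.38 ± 0.12, while CD14 was well above background on 1 array and CD68 and CD163 on 0.

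Markers of cells other than mononuclear cells were measured in part. The granulocyte list had a mean of 1.42 and the platelet gene PF4 one of 2.13, above the list means of T cells (-0.45), B cells (0.77) and monocytes (0.38), while red cells were at -0.48. The granulocyte mean rested on 2 genes and was close to that of the natural killer and cytotoxic list (1.37). Of 11 granulocyte markers S100A12 (3.04, 1.72, 2.09, 3.05 and 3.08) and S100A8 (0.44, -0.73, 0.27, -0.13 and 1.35), which monocytes also express, were measured. S100A9 was well above background on 3 arrays and CSF3R and CXCR2 on 0. The mean of the measured pair was 1.74, 0.50, 1.18, 1.46 and 2.21, lowest in animal 2. That was not particular to this list. Animal 2 was also lowest in many other classes, such as MHC class I presentation (1.31), glycolysis (0.99), histones (0.78) and lysosome (0.75). Of 8 red cell markers HBB, beta globin, was measured at -0.48 ± 0.39, with the probe for HBA, alpha globin, at 0 arrays. The platelet chemokine PF4 was at 2.13 ± 0.21. In RNA of mixed cells fewer cells of a type and less RNA in each cell cannot be told apart, and the part that cell make-up plays in any value here was not tested.

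Genes of the hypoxia response, whose best known regulators are the HIF transcription factors, were largely out of reach. Of 24 genes of the list on the array 3 were measured: ELOB (2.97 ± 0.45, SD, n = 5), a subunit of the ubiquitin ligase that marks HIF for destruction, the oxygen sensor EGLN2 (0.66 ± 0.37) and RBX1 (0.25 ± 0.26). HIF1A was well above background on 2 arrays, EGLN1 on 1, and EPAS1 and VEGFA on 0. Interferon response genes were measured in 8 of 34, with a class mean of 0.04 ± 0.08 led by IFITM2 at 2.67 ± 0.18, while IFIT1 and RSAD2 were at 0 arrays. Of 30 inflammatory genes 5 were measured, with a class mean of 0.27 ± 0.20, and IL6 and TNFAIP3 were at 0 arrays. A gene not well above background has only a bound at this brightness, since the lowest level well above background was between -1.81 in animal 2 and -3.00 in animal 3.

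Most genes differed little between the 5 arrays. The median SD was 0.40, with quartiles of 0.27 and 0.64, and 118 of 1827 genes had an SD over 1 (6.46%). On the 4 arrays of the shared slide alone the median SD of these genes was 0.37 and 135 were over 1, of which 102 were among the 118. With the genes ordered by level and cut into 4 equal groups, the share over 1 was 0.875% in the dimmest group, then 3.94% and 8.55%, and 12.5% in the brightest. The filter bounds this: a dim probe that fell far on 1 array was no longer well above background there and was not kept. With the requirement eased to 4 of 5 arrays, 2632 genes were kept and 533 had an SD over 1. The GC content of the probes had a median of 45.0% for the 118 genes and 45.0% for all. Its quartiles for the 118 genes, 41.7% and 53.3%, were both higher than those for all genes. Whether GC content has a part in these spreads was not tested.

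**Figure D3:**
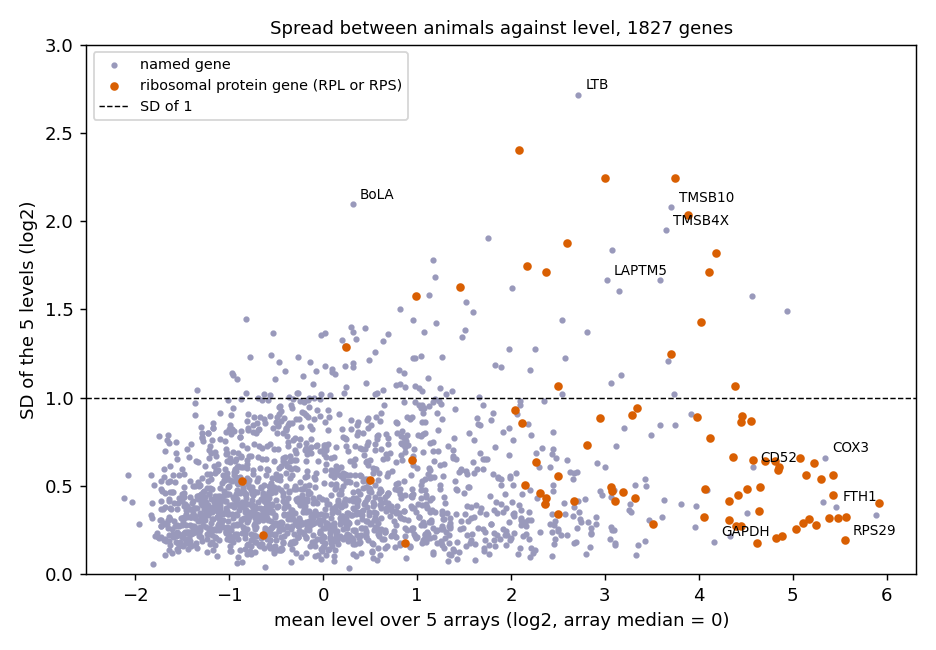
SD of the 5 levels of each of 1827 named genes against its mean level, both in log2 units, with ribosomal protein genes in orange and a dashed line at an SD of 1. The median SD is 0.40. LTB is the uppermost point at 2.72, and of the 118 genes above the line 57 are in the brightest of the 4 level groups.

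The 25 genes with the largest SD, from 1.58 to 2.72, held 11 ribosomal protein genes, thymosins and other actin-binding proteins, and MHC class I genes. LTB, lymphotoxin beta, a membrane cytokine of lymphocytes, led with 4.13, 4.19, 3.64, -2.13 and 3.74. Animal 4 lay far below 4 arrays that were close together, and without it the SD of LTB was 0.27. RPL11 gave 4.56, 4.32, -0.23, 5.00 and 5.08, low in animal 3 (SD 2.25, and 0.36 without that animal). RPLP0, a stalk protein of the ribosome, gave 4.92, 4.92, 4.44, 0.26 and 4.86, low in animal 4, and RPL23 gave 5.15, 5.40, 5.09, 1.01 and 4.26, also low in animal 4. RPL39 gave 4.05, 3.25, 1.52, 3.47 and -1.87, low in animal 5, and without that animal its SD was 1.09. These are values of the brightest probe. RPLP0, RPL23 and RPL39 had 3, 2 and 3 kept probes. In none of these genes were all kept probes low by at least 1 on the low array. In 22 of the 25 genes the array farthest from the gene's median was below it.

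Some genes of the actin cytoskeleton were among the 25, although the class as a whole had a median member SD of 0.33, against 0.40 over all genes, and 5 of 24 over 1. TMSB10 and TMSB4X encode the thymosins beta 10 and beta 4, which hold actin monomers. TMSB10 gave 5.02, 4.77, 0.11, 4.92 and 3.73, and TMSB4X gave 4.61, 4.79, 0.18, 4.30 and 4.35, both low in animal 3, without which their SDs fell from 2.08 to 0.60 and from 1.95 to 0.23. ARPC1B, a subunit of the complex that branches actin filaments, gave 2.85, 2.54, 2.06, -1.60 and 2.93, low in animal 4. ACTG1, gamma actin, had no such gap with its brightest probe, at 1.47, 4.00, 2.26, 5.33 and 4.88. That probe was highest in animal 4, where another ACTG1 probe sharing 55 bases with it was lowest, at -0.77. The next brightest ACTG1 probe had an SD of 0.504, against 1.67 with the brightest. LAPTM5, a lysosomal membrane protein of blood cells, gave 4.44, 4.06, 0.63, 4.06 and 1.91. GYPC, a membrane protein of red cells that other blood cells also make, gave 2.12, 2.44, 0.49, -1.66 and 2.45. KLF13, IL1RL1, MYL9 and SH3BGRL3, a transcription factor, a receptor for interleukin 33, a myosin light chain and a small thioredoxin-like protein, had SDs of 1.61, 1.58, 1.68 and 1.62.

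**Figure D4:**
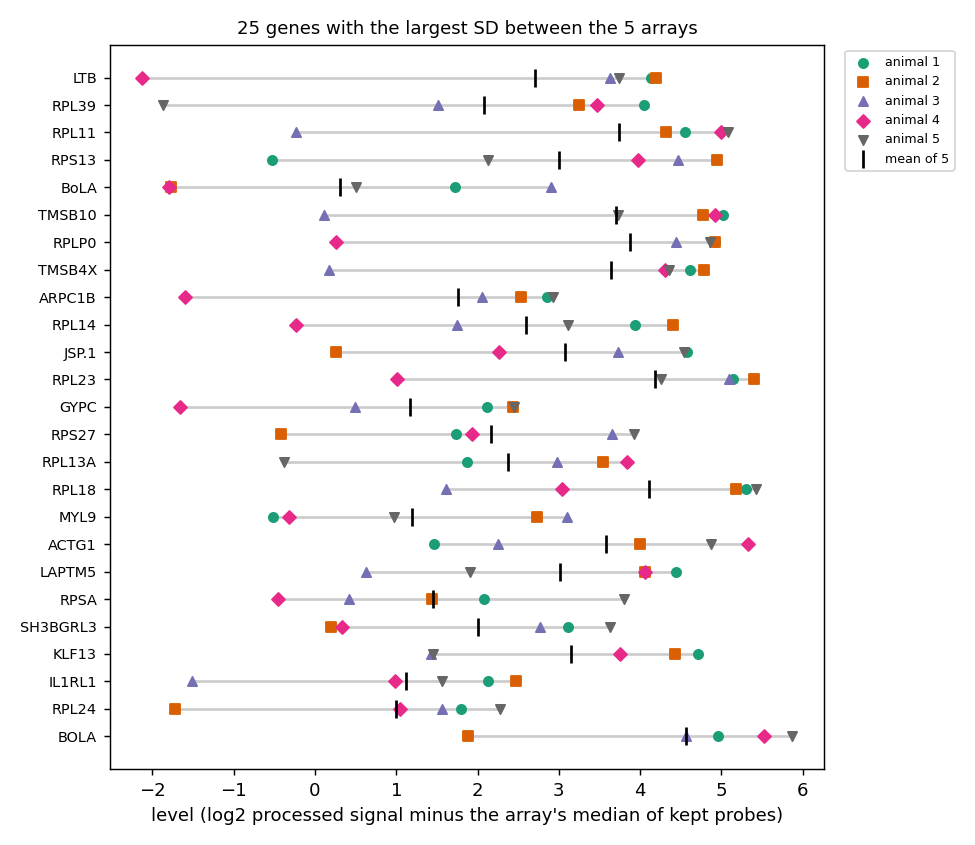
Levels of the 25 genes with the largest SD, 1 row a gene, on a log2 axis where 0 is the array's median of kept probes. Coloured points are animals 1 to 5 and the black tick is their mean. In LTB animal 4 stands alone at -2.13, and in TMSB10 and TMSB4X animal 3 stands alone at 0.11 and 0.18.

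Ribosomal protein genes were thus both the brightest and among the most spread. Of the 77 measured, 16 had an SD over 1, and their median SD was 0.56 against 0.40 over all genes. In these 16 the farthest array was low on animal 1 in 2 genes, on animal 2 in 3, on animal 3 in 2, on animal 4 in 5 and on animal 5 in 3, and was high in 1. No array was low throughout. By class, an SD over 1 was found in 4 of 33 small-subunit genes, 12 of 44 large-subunit genes, 4 of 27 translation factors, 5 of 24 actin genes, 3 of 10 immediate early genes and 4 of 11 genes of MHC class I presentation. It was found in none of 23 proteasome genes, 14 mitochondrial ribosomal protein genes or 8 interferon response genes. Against 6.46% of all genes and 12.5% of the brightest group, the small-subunit share of 12.1% was near that of bright genes, and classes of this size without such a gene are near the background.

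MHC class I had class means of 2.49, 1.31, 2.32, 2.00 and 2.78, lowest in animal 2 (2.18 ± 0.56, SD, n = 5). When all kept probes of a gene were averaged the means were 1.59, 0.93, 1.51, 1.32 and 1.78, with animal 2 still lowest. Class I molecules present peptides to killer T cells, and their genes differ between cattle haplotypes. B2M, the invariant light chain, gave 4.06, 4.35, 4.09, 2.25 and 4.01, low in animal 4. In that animal the brightest B2M probe departed by -1.80 from its median and the next, nearly as bright at a mean of 3.71, by 0.01. PSMB9, a proteasome subunit for class I peptides, was even, at 2.85 ± 0.26. Heavy chain probes were not. BOLA gave 4.96, 1.89, 4.57, 5.53 and 5.87, JSP.1 gave 4.58, 0.26, 3.73, 2.27 and 4.54, BOLA-A gave 3.68, 1.61, 1.79, 1.67 and 4.13, and BOLA-NC1 gave 2.01, 3.46, 2.71, 3.98 and 3.85. With these brightest probes BOLA, JSP.1 and BOLA-A were lowest in animal 2 and BOLA-NC1 in animal 1. The next probes did not repeat it: in animal 2 the brightest BOLA and JSP.1 probes departed by -3.07 and -3.48 from their medians and the next by 0.00 and -0.07. When all kept probes were averaged, the SD of BOLA was 0.40 in place of 1.58 and that of JSP.1 0.65 in place of 1.83.

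There were 6 probes at or near the end of the class I coding sequence. They are printed 5′ to 3′ because their patterns over the animals differed although their sequences nearly coincide. Capitals mark bases that differ from BOLA probe 1. In the order printed they lie on chromosome 23 of HGSC Btau_3.1, at chr23:27846342-27846701 (plus strand), chr23:28656079-28656442 (minus strand), chr23:27846336-27846533 (plus strand), chr23:28554532-28554730 (minus strand), chr23:27806042-27806263 (plus strand) and chr23:27805895-27806255 (plus strand), over spans longer than the probe.
BOLA, probe 1: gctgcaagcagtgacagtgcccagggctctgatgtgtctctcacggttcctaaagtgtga
BOLA, probe 2: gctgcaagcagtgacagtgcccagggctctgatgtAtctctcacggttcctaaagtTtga
BOLA, probe 3: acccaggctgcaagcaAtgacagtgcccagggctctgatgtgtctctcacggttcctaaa
BOLA, probe 4: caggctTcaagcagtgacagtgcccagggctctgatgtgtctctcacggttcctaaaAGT
BoLA, probe 1: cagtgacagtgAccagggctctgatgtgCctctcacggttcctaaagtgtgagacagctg
BoLA, probe 2: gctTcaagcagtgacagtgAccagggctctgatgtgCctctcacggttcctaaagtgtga

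Positions are counted from 1 at the 5′ end of BOLA probe 1, whose base is given first. That probe gave 4.34, 4.30, 4.60, 3.38 and 4.29 in animals 1 to 5, lowest in animal 4. BOLA probe 2, with G36A and G57T, gave 2.94, 2.93, 2.77, 4.08 and 3.50, highest in animal 4. BOLA probe 3, with G11A, gave 3.09, 3.09, 3.20, 3.88 and 3.61, also highest in animal 4. BOLA probe 4, with G4T, G55A, T56G and G57T, had an outlier mark in animal 3. It gave 3.60, 3.86, 4.65 and 3.86 in animals 1, 2, 4 and 5, again highest in animal 4. The differences were counted without gaps, and an inserted A would also account for G55A, T56G and G57T. The number of differences from BOLA probe 1 counted in this way did not order the spreads. BoLA probe 2, with G4T, C20A and T37C, gave 1.72, -1.77, 2.91, -1.80 and 0.50, an SD of 2.10 and the fifth largest of all genes. BoLA probe 1, with C20A and T37C, had a spot with an outlier mark in animal 1 and gave 0.85, 3.32, 4.21 and 3.69 in animals 2 to 5. Animal 2 was thus lowest, or within 0.1 of the lowest, with both BoLA probes, while animal 4 was highest with one and lowest with the other. The genes are near-identical, so a probe's signal may hold RNA of several of them, and whether these spreads follow the animals' class I alleles was not tested.

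MHC class II, carried by B cells and monocytes, was measured by 7 of 17 genes, with a mean of 0.64 ± 0.40 (SD, n = 5), lowest in animal 2 at 0.09 and highest in animal 4. BOLA-DRA, the invariant DR alpha chain, gave 2.91, 1.92, 2.42, 1.71 and 3.11, and BoLA-DRB3, the variable DR beta chain, gave 1.44, -0.28, -0.47, 1.87 and 1.34.

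A second probe of the same gene repeated a large spread in a minority of genes. Of the 376 genes with 2 or more kept probes, 43 had an SD over 1 with the brightest probe, and in 12 of those 43 the next brightest probe was over 1 as well. In 4 of the 43 the next probe departed the same way by at least 1 on the farthest array. The median SD of the 43 was 1.39 with the brightest probe, which chose them, and 0.69 with the next. Over all 376 genes the next probe had a median SD of 0.46. KLF13, for example, gave 4.71, 4.43, 1.42, 3.75 and 1.45 with its brightest probe and 1.98, 2.20, 2.05, 1.99 and 1.71 with the next. When all kept probes of a gene were averaged, 10 of the 25 genes with the largest SD stayed in the list and 14 of the 25 brightest did.

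**Figure D5:**
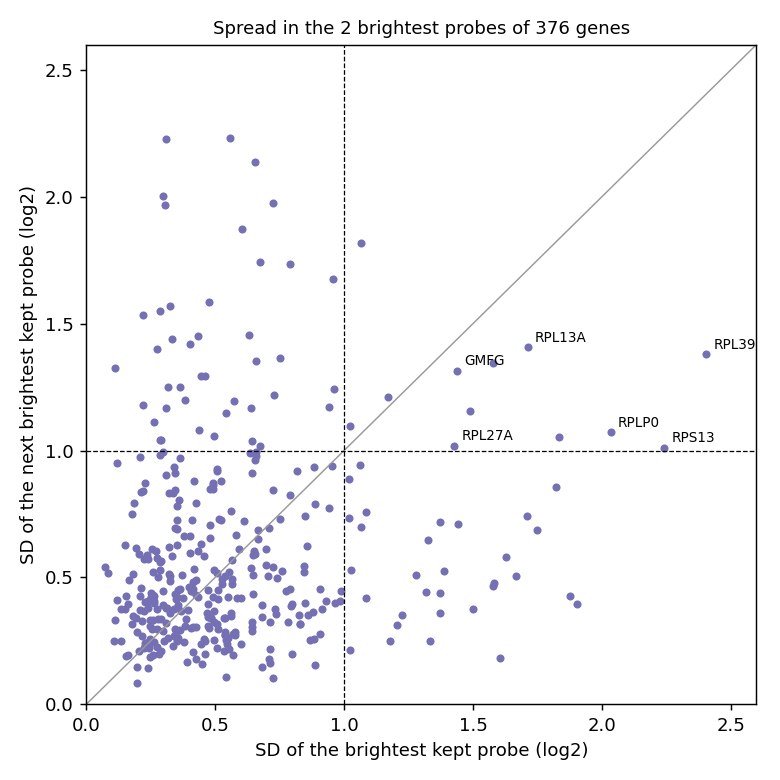
SD over the 5 arrays of the brightest kept probe (x axis) and of the next brightest (y axis) of 376 genes, in log2 units, with dashed lines at 1 and a grey line of equality. Of 43 genes to the right of the vertical line 12 are also above the horizontal one.

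Probes that overlap on the genome gave the same picture. In 108 pairs of kept probes that shared at least 40 bases, the difference between the probes had a median SD over the animals of 0.70, and 34 pairs were over 1. In RPL10 a pair of dimmer probes sharing 58 bases gave 2.64, 2.26, 2.08, 2.07 and -0.02 against 3.06, 3.08, -2.43, 2.69 and 1.07. A lone low array in TMSB10 and TMSB4X was not repeated either. The TMSB10 probe at chr11:51854969-51855028 read 0.11 in animal 3, and the probe at chr11:51854965-51855024, which had an outlier mark in animal 4, read 3.77. For TMSB4X the values in animal 3 were 0.18 and 4.94 with probes whose starts lay at 3545 and 3549 of an unplaced scaffold. LTB, RPL11, LAPTM5 and GYPC each had 1 kept probe, so their spreads have no such check.

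Repeated spots of 1 probe on 1 array give the spread of the measurement itself. There were 17 such sets of 4 spots well above background, from 5 probes, and the SD within a set ran from 0.14 to 1.45 with a median of 0.52. The RPL32 spots read 1.04, 3.76, 3.86 and 4.15 in animal 2 and 3.72, 3.91, 4.17 and 4.50 in animal 1. The median spread within a set was thus no smaller than the median SD of 0.40 between animals, although the sets are few and rest on 5 probes. A departure of more than 2 below the probe's median occurred 232 times among the kept probes, in animals 1 to 5 at 18, 44, 56, 79 and 35 probes, and a departure of more than 2 above it 17 times. The 5 nearest kept spots around these low spots had median departures between -0.26 and 0.00.

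The genes with the largest SD did not move as 1 block. Over the 50 genes with the largest SD, the farthest array was below the median in 44 and above in 6. Animal 3 was the farthest in 15 low and 3 high genes, animal 4 in 11 low, animal 2 in 10 low and 2 high, animal 1 in 4 low, and animal 5 in 4 low and 1 high. Over all 1827 genes the farthest array was low in 66.3%, with shares between 11.3% in animal 1 and 17.6% in animal 5. The first principal component of the gene-centred levels held 33.0% of the variance, the next 3 held 26.8%, 22.9% and 17.3%, and with 5 arrays there are no more. Scores on the first were -0.16, -0.35, -0.15, 0.51 and 0.15 in animals 1 to 5, with animal 4 at one end and animal 2 at the other. Pearson's r between arrays over the 2684 probes, which share their brightness on every array, ran from 0.796 (animals 2 and 4) to 0.882 (animals 1 and 2). With 5 arrays no correlation between genes is given.

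A smaller set of genes departed on the same array with every kept probe. In 13 of the 376 genes with several kept probes, all kept probes, 2 or 3 a gene, departed together. They lay at least 1 above or at least 1 below their medians on the same array. These genes were chosen by that agreement, so it is a description. The 2 GMFG probes share 49 bases and the 2 RPL10A probes 43, so these pairs are not separate checks. COX2, a mitochondrial cytochrome oxidase subunit, was high in animal 5, with probe means of 1.84, 1.57, 2.30, 3.22 and 4.03. HSP90AA1, the inducible cytosolic HSP90, was also high in animal 5, at 1.21, 1.18, 1.45, 1.17 and 2.53. GMFG, an actin regulator of white blood cells, was high in animal 1, at 2.65, -0.81, 0.42, 0.29 and 0.49. BOLA-DQB1, a class II beta chain, was high in animal 4 with both probes, at probe means of 0.62, -0.74, -0.78, 0.95 and -0.33.

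The other 9 departures were low. CD247, the zeta chain of the T cell receptor complex, was low in animal 3, at 2.99, 2.67, 0.52, 1.68 and 2.41. LDHA, lactate dehydrogenase A, was low in animal 2 and LDHB, its partner subunit, in animal 3. SMARCA4, the motor of a chromatin remodelling complex, was low in animal 4. The 5 ribosomal protein genes were RPL27A, low in animal 1 with 3 probes (1.48, 3.04, 3.52, 2.90 and 4.39), RPL35 in animal 3, RPL10A in animal 4, and RPL13A and RPS13 in animal 5. RPL13A lay at -1.23 in animal 5 and up to 2.54 in animal 4, and RPS13 gave 0.39, 2.84, 2.36, 2.39 and 0.40. In animal 1 the RPS13 probes went opposite ways, the brightest departing by -4.51 from its median and the other by 0.57, so the low mean there is not shared.

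At the other end, the 5 genes with the smallest SD among those above the median level were THAP3, CDC42SE1, MAP4K1, RAVER1 and the open reading frame C7H19orf6. C7H19orf6 gave 0.32, 0.24, 0.28, 0.28 and 0.24, an SD of 0.03. MAP4K1, a kinase of blood cells, gave 1.54, 1.57, 1.74, 1.66 and 1.57. Among brighter genes PABPC1, ITGB2, IFITM2 and RPS29 had SDs from 0.11 to 0.19 with their brightest probes, and the other PABPC1 probe had 0.25.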

How the data were processed

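Total RNA of PBMCs was extracted with Trizol, cleaned on a column with DNase, amplified with a T7 primer and marked with the dye Cy3, per the labels' protocols. The deposited intensity values, per the file headers, are Agilent Feature Extraction 12.0.1.1 processed signals, background-subtracted and spatially detrended, with a surrogate for spots not above background, and the array's build is HGSC Btau_3.1. Every value was used as log2 minus the array's median over kept probes. Control spots and spots with an outlier mark were left out, which removed 28 probes otherwise well above background on all 5 arrays. Spots of 1 probe were averaged. Names came from the array's annotation columns and were updated through RefSeq (ARS-UCD2.0, names only): 27964 probes matched by accession, 33902 were named, and 309 measured transcripts stayed unnamed and out of the gene counts.

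The members, the gene lists and the rules were chosen with earlier results of these data known. Genes were named as the 25 with the highest level, the 25 with the largest SD, the 2 highest and the most variable of each class, and the 5 with the smallest SD above the median level; other list members and second probes are named as examples or checks. A few genes that these rules name are not reported here. No test between groups was made, since there is 1 group, and 5 arrays limit the precision of every SD. Alternatives were normexp on the median spot and median background signals (offset 50), the 75th percentile, quantile normalization, cyclic loess (limma 3.58.1 in R 4.3.3), a 4-of-5 filter, averaging a gene's probes, keeping marked spots, and leaving out each array. Other steps used Python 3.11.15, numpy 2.4.6 and pandas 2.3.3, and were tested on simulated data.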

Additional observations from a re-analysis of the deposited data

Results flagged for a closer look

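Values in which 1 of the 5 arrays stood apart, by Dixon's ratio of its gap to the whole range (above 0.71), are given here. Chance puts about 1 in 20 groups past that value, and 182 of 1827 genes (9.96%) passed it, 157 with the odd array low and 25 with it high. Among the 118 genes with an SD over 1 it was 40, of which 39 were low. The causes were not tested.

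Animal 2 had 32 spots with an outlier mark, against 11 to 15 on the other arrays. Of the class means, the antioxidant enzymes were low in animal 4 (0.45), the actin cytoskeleton in animal 3 (1.47) and the dendritic cell markers in animal 2 (-0.78). The actin value depended on the scaling: with the 75th percentile animal 3 stood at 1.81, within the range of 1.69 to 1.87, and animal 4 was lowest. In animal 3 the low genes were RPL10 (4.82), RPS27A (4.63), RPL11 (-0.23), TMSB10 (0.11), TMSB4X (0.18), ATP5MG (2.50), ATP6V0C (1.24) and ELOB (2.17). In animal 4 they were LTB (-2.13), RPLP0 (0.26), ARPC1B (-1.60), RPL23 (1.01), EIF3F (-1.83), B2M (2.25), PFN1 (3.11) and CCND3 (-0.24), while SNRPB was high (2.81). Animal 2 was low in COX6B1 (-0.97), BOLA-DQA2 (0.60) and TCF4 (-1.16), and high in BLK (1.99) and THAP3 (0.25). Animal 5 was low in ALDOA (0.021) and CCL5 (1.58) and high in CDC42SE1 (1.46). Animal 1 was low in PSME1 (1.57). All these are values of a gene's brightest probe. On the odd array the next probe departed by less than 1 either way in B2M, ARPC1B, EIF3F, ALDOA and CCL5. The same held for ATP5MG, ATP6V0C, ELOB, COX6B1 and BOLA-DQA2. For RPL10 a probe sharing 55 bases with the brightest read 4.95 in animal 3 and was lowest in animal 4, at 2.83. In RPLP0 and RPL23 not every kept probe was low by at least 1 in animal 4.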

How the results depend on the processing

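The number of genes with an SD over 1 depended most on the background correction and the filter. It was 118 as reported, 65 with normexp and 533 with the 4-of-5 filter, and between 85 and 134 under the other 5 alternatives; leaving out 1 array gave 123 to 163. The median SD ran from 0.32 to 0.51, and from 0.37 to 0.40 with 1 array left out. Of the 25 genes with the largest SD, 22 to 24 stayed in the list under normexp, the scalings and with marked spots kept, 10 when probes were averaged, 3 with the 4-of-5 filter and 14 to 20 with 1 array left out. Class means moved by more than their SD between animals in 66 recomputations and by less in 354. These were unevenly spread. When probes were averaged 18 class means moved and 17 did not, and without animal 2 it was 19 and 16. With the 75th percentile and with quantile normalization 0 moved. The first principal component held 32.1% to 42.6% of the variance, and 39.7% to 43.6% with 1 array left out, where fewer arrays leave fewer components. No paired analysis was possible because there is 1 group. Signal over background limits the description to the brighter probes.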
